A study of Mus musculus with 6 samples.

Results

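The genes described here are 10 antioxidant and detoxification genes known as targets of the transcription factor NRF2: Nqo1, Gpx2, Txnrd1, Srxn1, Gclc, Gclm, Slc7a11, Hmox1, Osgin1 and Me1. They were taken as a list of symbols chosen with earlier results of these data known. Matched to the Entrez identifiers of the count files, they are 10 of 36528 listed genes. All 10 passed the filter on low counts, which left 15132 genes to test, but Slc7a11 passed it only through its DT libraries. RNA was measured by polyA sequencing in hair follicle stem cells sorted from mouse skin as CD49f+/CD34+/GFP- cells. The mice were Lgr5-DTReGFP animals, in which the Lgr5 locus carries the diphtheria toxin receptor and eGFP, and they had received saline (NaCl, 3 libraries) or diphtheria toxin (DT, 3 libraries). Both groups carried the receptor allele, and no group without it was given DT. Only cells that express Lgr5 make the receptor, and the sort kept cells without the reporter. Strain, age, toxin dose, time after treatment and hair cycle stage are not stated in the labels. Whether each library stands for a different animal is not stated either, and the p-values then reflect only variation among the sequenced libraries, which could be technical. The submitters' identifiers fall into a larger number series (libraries 1 and 2 of each group) and a smaller one (library 3 of each group), and what they stand for is not stated.

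NRF2, encoded by Nfe2l2, is kept scarce by KEAP1, which hands it to the CUL3 ubiquitin ligase for degradation. Oxidants and electrophiles modify KEAP1, NRF2 accumulates, pairs with a small MAF protein and binds antioxidant response elements in its target genes, while BACH1 occupies the same elements as a repressor. Because this control acts on the protein, the mRNA of Nfe2l2 is not a measure of NRF2 activity. In the epidermis the pathway is known for protecting keratinocytes from ultraviolet light and reactive chemicals, and its targets serve glutathione supply, thiol and quinone redox reactions, heme breakdown and NADPH supply.

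Promoter stretches of 6 of the genes are shown because they hold a sequence match to the core of the element through which the family is defined. RefSeq promoter windows (GRCm38.p6, 250 bases before to 50 from the start) were on hand for 8 of the 10 genes, in 11 windows, and Gclc and Hmox1 are named only. Windows were searched on both strands for the core of the antioxidant response element as TGACNNNGC or TGAGNNNGC, for the AP-1 site TGANTCA, which can overlap the element, and for the amino acid response element core TGATGCAA. Sequences read 5′ to 3′ on the gene's strand, capitals mark the matches, and positions count from the start as 0.
Gclm, chr3:122245411-122245443, + strand: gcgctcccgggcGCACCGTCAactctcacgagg
Txnrd1, chr10:82859102-82859134, + strand: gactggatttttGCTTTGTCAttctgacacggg
Osgin1, chr8:119437036-119437068, + strand: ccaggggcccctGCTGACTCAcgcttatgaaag
Me1, chr9:86695912-86695932, - strand: ccgatgccgccgTGACTCAGC
Slc7a11, chr3:50443641-50443722, - strand: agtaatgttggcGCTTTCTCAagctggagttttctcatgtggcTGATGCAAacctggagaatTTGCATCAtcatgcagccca
Srxn1, chr2:152105354-152105499, + strand: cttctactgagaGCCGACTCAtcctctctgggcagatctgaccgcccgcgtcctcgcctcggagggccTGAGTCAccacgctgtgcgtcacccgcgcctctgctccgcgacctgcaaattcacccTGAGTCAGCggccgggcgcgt

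At least 1 match to the core of the element was found in 6 of the 11 windows, and in 27.8% of all 32851 promoter windows. By form, TGACNNNGC was in 12.4% and TGAGNNNGC in 17.6% of all windows. The match in Me1 (positions -6 to 2) spans the start and reads TGACTCAGC, and the one in Osgin1 (-99 to -91) reads TGAGTCAGC on the opposite strand. Both contain an AP-1 site, a motif held by 7.81% of all windows, as does the Srxn1 match at -45 to -37. Srxn1 had a further match at -158 to -150, another at 28 to 36 that is not printed, and an AP-1 site alone at -102 to -96. The Slc7a11 stretch carries 2 copies of TGATGCAA, at -66 to -59 and on the opposite strand at -47 to -40. That motif is in 0.895% of all windows, and amino acid response elements are known as binding sites of ATF4. Gpx2 and Nqo1 had no match of any of these motifs in the window, and neither had the windows of Txnrd1 and Me1 that are not printed. The printed stretches of Osgin1, Slc7a11 and Txnrd1 belong to starts well inside the gene spans given below, not to the ends of those spans. A match describes letters and was not tested as a binding site.

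**Figure D1:**
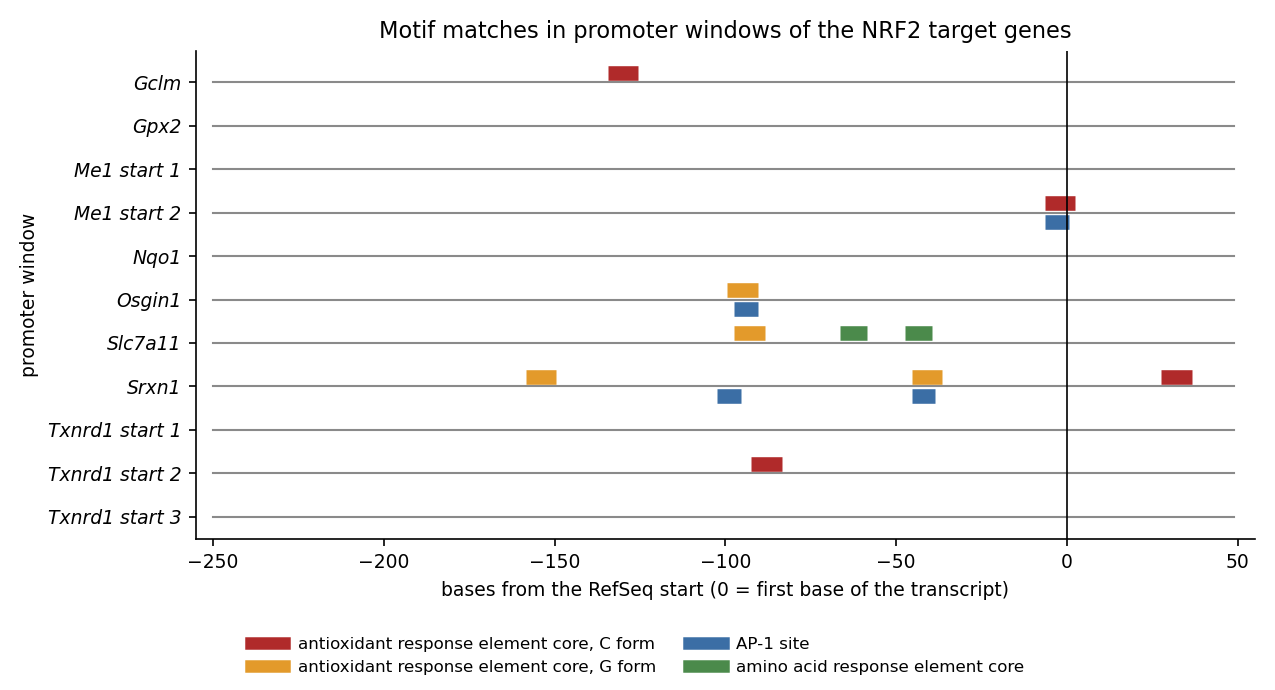
Positions of motif matches in the 11 RefSeq promoter windows of 8 NRF2 target genes, in bases from the start (0), with 1 line per window and 1 coloured bar per match on either strand. Matches of the antioxidant response element lie in 6 windows, and AP-1 sites are drawn below the line.

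Of the 10 genes, 4 rose in the DT libraries: Gpx2, Osgin1, Hmox1 and Txnrd1. Among all genes tested 17.2% rose, 11.9% fell and 29.0% passed in either direction (edgeR quasi-likelihood test, Benjamini-Hochberg adjusted over all genes). The rises were 6.95-fold for Gpx2, 5.01-fold for Osgin1, 4.39-fold for Hmox1 and 2.09-fold for Txnrd1. By edgeR, DESeq2 or limma-voom 0 of the 10 fell, and 1, Nqo1, was lower at an unadjusted p under 0.05 with edgeR. The median log2 fold change was 0.72 for the 10 genes and -0.01 for all genes tested, and 8 of the 10 had a value above 0. Levels of the DT libraries lay wholly above or below those of the saline libraries for 7 of the 10, where 45.9% of all genes tested did so. DT was the higher group in 6 of these 7, and in 25.4% of all genes. Slc7a11, kept by the filter only through its DT libraries, counts in the median, the 8, the 7 and the 6. A rise of more than 2-fold that passed the test was seen in 4 of the 10, and in 8.76% of all genes. Because the 10 were chosen with earlier results of these data known, these shares are a description and not a test of the list. Set against each gene's saline mean on the log2 scale, the median of the 10 lay between -0.11 and 0.07 in saline, and was 0.67, 1.07 and 0.89 with DT. Because these are bulk libraries, more cells with a transcript and more of it per cell cannot be told apart.

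**Figure D2:**
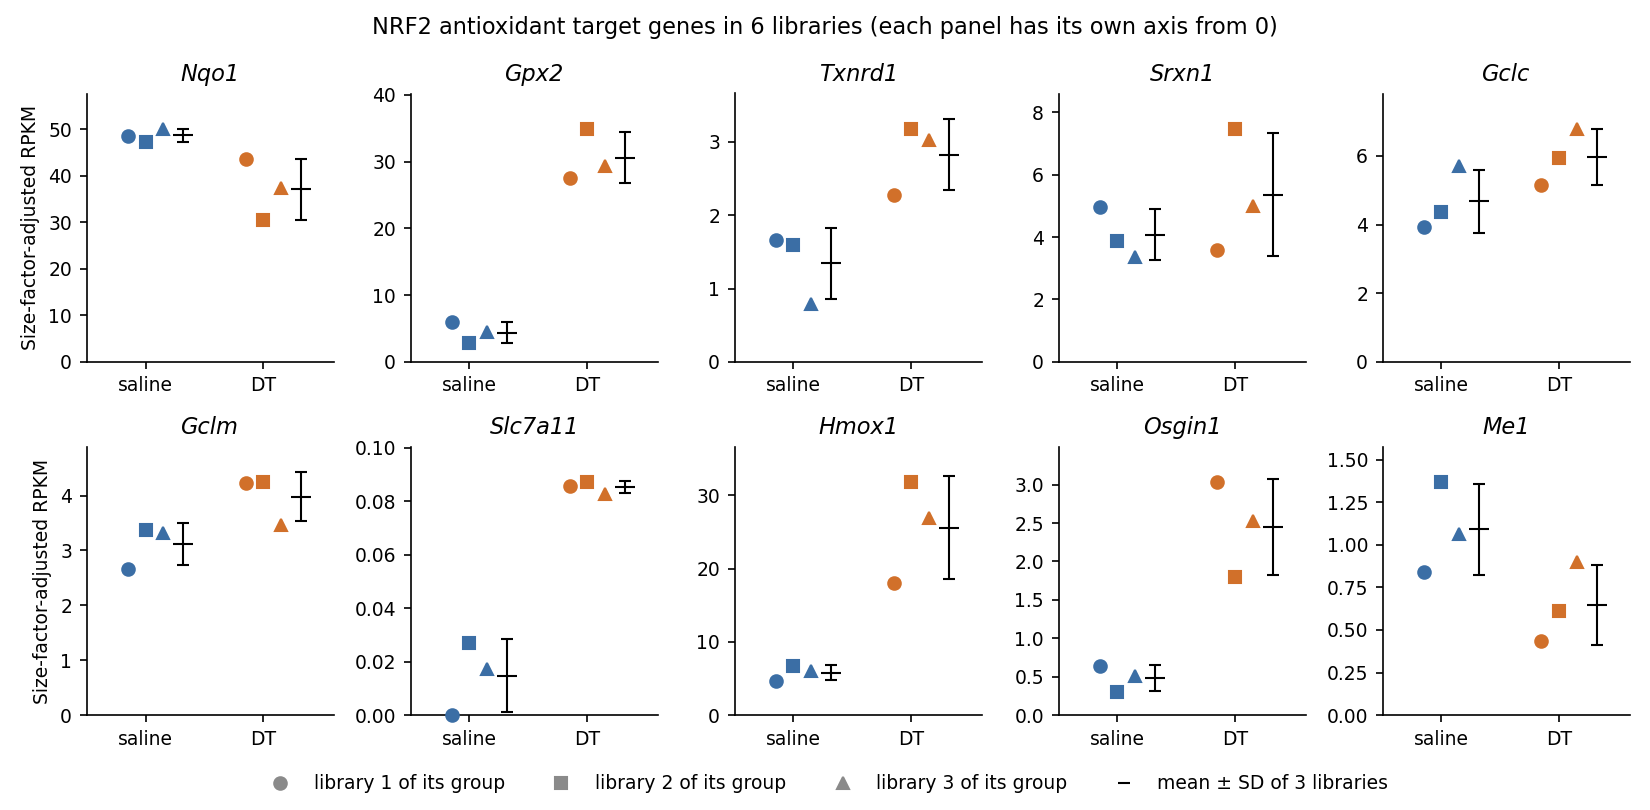
Size-factor-adjusted RPKM of each of the 10 genes in every library, with the mean ± SD of 3 libraries in black and a separate vertical axis from 0 in each panel. Gpx2, Hmox1, Osgin1, Txnrd1, Slc7a11 and Gclm show all DT libraries above all saline libraries, by a narrow margin for Gclm. Nqo1 shows the reverse order, and the groups overlap for Srxn1, Gclc and Me1.

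Of the 4 thiol and quinone redox enzymes Gpx2 and Txnrd1 rose, and Nqo1 and Srxn1 did not pass the test. Gpx2 (Entrez 14776, chromosome 12 from 76792335 to 76795554 in GRCm38) encodes a selenium-containing glutathione peroxidase of epithelia that reduces peroxides. Its level was 6.71, 3.15 and 5.04 CPM, the read count relative to the TMM-scaled library size, in saline libraries 1 to 3 and 31.9, 38.9 and 33.0 CPM in DT libraries 1 to 3, respectively. Every DT library was therefore above every saline library, and the DT libraries differed from each other by less than the saline ones in relative terms (coefficient of variation 10.9% against 36.0%). The rise from 4.97 ± 1.79 to 34.6 ± 3.77 CPM (SD, n = 3) was 2.80 on the log2 scale (SE 0.27, adjusted p = 0.000113).

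Txnrd1 (Entrez 50493, chromosome 10 from 82833951 to 82897724), the cytosolic thioredoxin reductase that passes electrons from NADPH to thioredoxin, measured 7.09, 6.85 and 3.34 CPM with saline and 9.94, 13.4 and 12.9 CPM with DT. The groups did not overlap, and saline library 3 was the low value. The log2 fold change was 1.06 (SE 0.31, adjusted p = 0.0268). This call was lost without saline library 3 (0.79, adjusted p = 0.0575), without DT library 2 (0.96, adjusted p = 0.104) or without DT library 3 (0.99, adjusted p = 0.0978). It was also lost in the 4 libraries of the larger identifier series (0.74, adjusted p = 0.189, where the range over all alternatives was 0.0057 to 0.189).

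Nqo1 (Entrez 18104, chromosome 8 from 107388225 to 107403205), a quinone reductase often used as a readout of NRF2, did not go the same way. It stood at 80.4, 78.3 and 82.7 CPM in saline and at 73.4, 49.5 and 61.2 CPM in DT. All DT libraries were below all saline libraries, and the saline libraries lay close together while the DT libraries spread. The log2 fold change of -0.39 (SE 0.16, adjusted p = 0.0906) did not pass. It passed when scaled by library size only (-0.49, adjusted p = 0.037), a scaling that moved the median of all genes from -0.01 to -0.11, and without DT library 1 (-0.54, adjusted p = 0.0201), and its adjusted p reached 0.357 over the alternatives.

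Srxn1 (Entrez 76650, chromosome 2 from 152105524 to 152111376) encodes sulfiredoxin, which restores over-oxidised peroxiredoxins. It measured 14.9, 11.7 and 10.1 CPM with saline and 10.97, 22.0 and 14.8 CPM with DT. The groups overlapped, with DT libraries 1 and 3 inside the saline range and DT library 2 the highest of all. Its log2 fold change was 0.38 (SE 0.28, adjusted p = 0.332), and 0.05 without DT library 2.

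The genes of glutathione supply gave small or imprecise differences. Gclc (Entrez 14629, chromosome 9 from 77754535 to 77794489), the catalytic subunit of the enzyme that limits glutathione synthesis, measured 16.2, 17.9 and 23.3 CPM with saline and 21.6, 23.9 and 27.7 CPM with DT. The groups overlapped, since saline library 3 was above DT library 1. Its log2 fold change was 0.35 (SE 0.20, adjusted p = 0.207). Gclm (Entrez 14630, chromosome 3 from 122245487 to 122267215), the modifier subunit of the same enzyme, measured 5.88, 7.45 and 7.29 CPM with saline and 9.52, 9.20 and 7.58 CPM with DT. DT library 3 lay just above the saline range, and the log2 fold change of 0.35 (SE 0.23, adjusted p = 0.287) did not pass. Exons of an antisense transcript and of a pseudogene overlap Gclm in the GENCODE M21 annotation, so some of its reads may be shared. The ratio of Gclm to Gclc, per length, was 0.676 ± 0.0949 in saline and 0.681 ± 0.158 in DT (SD, n = 3; log2 difference -0.01, two-sided exact permutation p = 1, where 0.1 is the smallest p the 20 arrangements allow).

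Slc7a11 (Entrez 26570, chromosome 3 from 50364936 to 50499087), the cystine transporter subunit that brings in the precursor for glutathione, was close to the limit of detection. It had 0, 6 and 4 reads in saline libraries 1 to 3 and 19, 13 and 21 reads in DT libraries 1 to 3. In CPM this was 0, 0.278 and 0.174 in saline and 0.891, 0.873 and 0.838 in DT, so the groups did not overlap. The fitted log2 fold change of 2.51 (SE 0.85) had an adjusted p of 0.050001, just above the threshold, and with a library at 0 reads its size depends on the prior count. It was 1.90 without saline library 1 (adjusted p = 0.0686) and passed with limma-voom (3.08, adjusted p = 0.0336). Over all alternatives its adjusted p was 0.0336 to 0.296.

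Hmox1 (Entrez 15368, chromosome 8 from 75093618 to 75100593), heme oxygenase, splits heme into biliverdin, iron and carbon monoxide, and is a gene that BACH1 represses. It measured 7.87, 11.3 and 9.98 CPM with saline and 30.9, 52.4 and 44.8 CPM with DT. The lowest DT library was well above the highest saline library. The log2 fold change was 2.13 (SE 0.24, adjusted p = 0.000254), with a range of 1.94 to 2.32 when each library was left out in turn. Hmox1 is also high in macrophages. The macrophage marker Adgre1 fell from 1.82 ± 1.13 to 0.0623 ± 0.0600 CPM, Cd68 was at 5.06 ± 2.48 and 4.45 ± 0.628 CPM, Cd14 at 8.21 ± 3.07 and 8.24 ± 2.19 CPM, and Itgam rose from 0.344 ± 0.301 to 4.03 ± 2.17 CPM (SD, n = 3). Of the 10 myeloid and lymphoid markers that could be tested 1 rose and 4 fell, where 17.2% of all genes tested rose and 11.9% fell. The summed level of all 16 such markers ranged from 172 to 235 CPM with saline and from 114 to 142 CPM with DT. Most of that sum was Cd74, the invariant chain of MHC class II, which is not limited to macrophages. It averaged 152 ± 20.6 CPM with saline and 97.96 ± 9.47 CPM with DT. The T cell genes Cd3e and Cd3g were among those that fell, so the sum mixes several cell types. Their part in the level of Hmox1 was not tested.

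Osgin1 (Entrez 71839, chromosome 8 from 119425882 to 119446257), a growth inhibitor induced by oxidative stress, measured 1.74, 0.833 and 1.39 CPM with saline and 8.39, 4.77 and 6.79 CPM with DT. The groups stood apart, although both spread widely for their level. The log2 fold change was 2.33 (SE 0.38, adjusted p = 0.00192).

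Me1 (Entrez 17436, chromosome 9 from 86581363 to 86695914), the cytosolic malic enzyme that makes NADPH, measured 3.19, 5.23 and 4.04 CPM with saline and 1.69, 2.28 and 3.39 CPM with DT. DT library 3 lay inside the saline range. The log2 fold change was -0.75 (SE 0.37, adjusted p = 0.153), and between -1.09 and -0.54 when each library was left out. Exons of an antisense transcript overlap Me1, and whether counting used strand is not given in the sources used here.

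**Figure D3:**
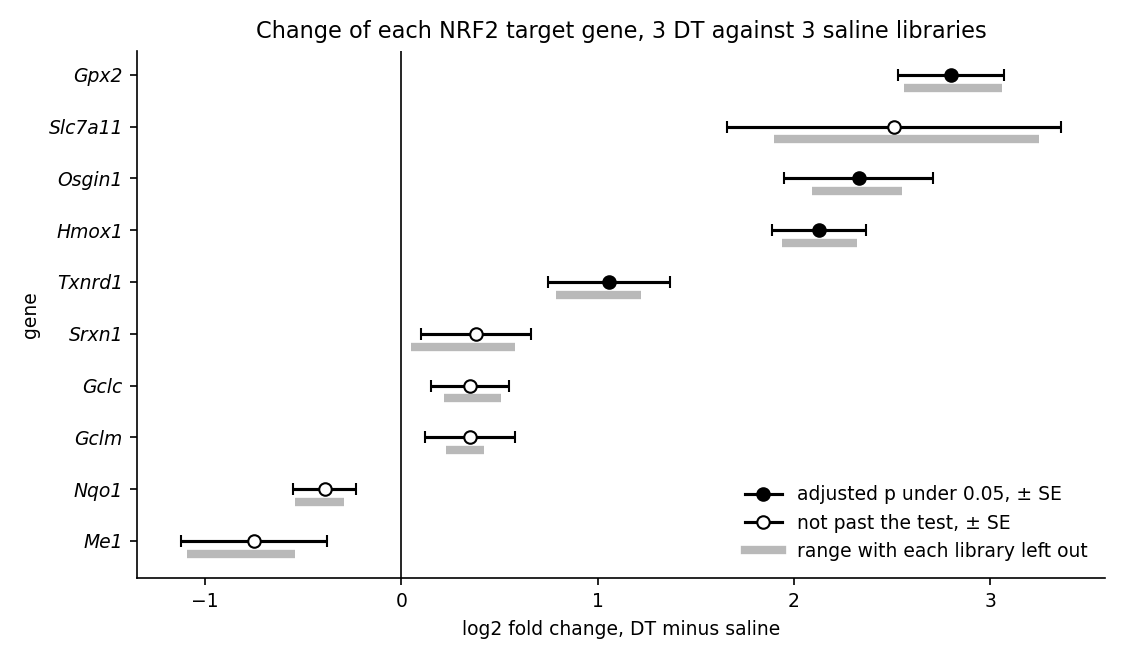
Log2 fold change (DT minus saline) of each of the 10 genes with its SE, filled where the adjusted p was under 0.05, and in grey the range of values when each of the 6 libraries was left out. Gpx2, Osgin1 and Hmox1 lie beyond 2, with ranges of 2.56 to 3.06, 2.09 to 2.55 and 1.94 to 2.32, respectively. Slc7a11 is as high with a wide SE of 0.85, and Nqo1 and Me1 lie below 0.

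The order of the genes by level per length shifted between groups. In saline Nqo1, at 48.7 ± 1.44 RPKM, was far above Hmox1 (5.80 ± 1.03), Gclc (4.67 ± 0.920), Gpx2 (4.37 ± 1.57) and Srxn1 (4.08 ± 0.814 RPKM). Each of these 4 overlapped its neighbour in the order, so their ranks were not separated by the spread between libraries. Gclm (3.12 ± 0.391), Txnrd1 (1.35 ± 0.488), Me1 (1.09 ± 0.267), Osgin1 (0.488 ± 0.169) and Slc7a11 (0.0148 ± 0.0137 RPKM) followed, with Txnrd1 and Me1 overlapping. In DT the order opened with Nqo1 (37.1 ± 6.51), Gpx2 (30.6 ± 3.87) and Hmox1 (25.6 ± 6.99 RPKM). Nqo1 overlapped Gpx2 and Gpx2 overlapped Hmox1 between libraries, while Hmox1 stood clear of Gclc (5.97 ± 0.819 RPKM). Txnrd1 (2.83 ± 0.484) and Osgin1 (2.45 ± 0.625) came above Me1 (0.648 ± 0.234), and Slc7a11 stayed the lowest (0.0853 ± 0.00227 RPKM). Nqo1 made up 66.1% ± 0.428 of the summed RPKM of the 10 genes in saline and 32.7% ± 7.52 in DT. The share of Gpx2 was 5.91% ± 2.07 and 26.6% ± 2.02, and that of Hmox1 7.89% ± 1.53 and 22.2% ± 4.95 (SD, n = 3). The sum itself was 71.7 to 75.4 RPKM in saline and 108 to 121 RPKM in DT.

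Among 11 genes for NRF2 and its regulators, 1 rose and 1 fell, where 17.2% of all genes tested rose and 11.9% fell. Maff, a small MAF partner of NRF2, rose from 5.67 ± 1.21 to 15.8 ± 6.40 CPM (log2 fold change 1.47, SE 0.32, adjusted p = 0.00816). It measured 4.31, 6.06 and 6.64 CPM with saline and 9.66, 22.4 and 15.2 CPM with DT. Bach2, a relative of BACH1, fell from 22.3 ± 4.53 to 12.5 ± 2.09 CPM (-0.83, SE 0.22, adjusted p = 0.0186). Leaving out saline library 2, DT library 2 or DT library 3 each ended the call of Bach2 (adjusted p at most 0.066 over the alternatives). Nfe2l2 itself averaged 273 ± 9.77 CPM with saline and 239.9 ± 13.7 CPM with DT (-0.19, SE 0.12, adjusted p = 0.251). Keap1 had a log2 fold change of -0.31 (adjusted p = 0.232) and Bach1 of -0.19 (adjusted p = 0.499). The ligase subunits Cul3 (0.25, adjusted p = 0.34) and Rbx1 (0.27, adjusted p = 0.161) and the small MAF genes Mafg (0.43, adjusted p = 0.0675) and Mafk (0.32, adjusted p = 0.208) did not pass. The same held for Sqstm1, an autophagy receptor that binds KEAP1 (0.36, adjusted p = 0.062), and for the NRF2 relative Nfe2l1 (-0.17, adjusted p = 0.549).

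The thioredoxin and peroxiredoxin genes, which act beside Txnrd1 and Srxn1, rose in 6 of 14 cases, and 17.2% of all genes tested rose. The list had a median log2 fold change of 0.33. Thioredoxin, Txn1, rose from 134 ± 10.3 to 258 ± 47.2 CPM (0.94, SE 0.16, adjusted p = 0.0021). The peroxiredoxins Prdx1 (0.91), Prdx4 (0.87), Prdx3 (0.72) and Prdx2 (0.50) rose as well, as did the mitochondrial reductase Txnrd2 (0.95, adjusted p = 0.0126). Prdx6 was at 656 ± 23.9 and 535 ± 28.9 CPM and did not pass (-0.29, adjusted p = 0.0856), and neither did Prdx5 (-0.3, adjusted p = 0.21). The count was 4 without saline library 2 or without DT library 3, and 1, Txn1, in the 4 libraries of the larger identifier series. Txnrd2 lost its call when saline library 2 or either of DT libraries 2 and 3 was left out, and Prdx2 without saline library 2 or DT library 3. With scaling by library size only or without DT library 1, 2 of the 14 genes fell, and 1 fell with DESeq2.

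Of 9 enzymes listed for their link to NADPH supply, 4 rose, where 17.2% of all genes tested rose. Not all of the 9 make NADPH themselves, and the list had a median of 0.49. The 4 were the mitochondrial malic enzyme Me2 (1.09, adjusted p = 0.00447), isocitrate dehydrogenase Idh1 (0.54, adjusted p = 0.0126) and the pentose phosphate enzymes Tkt (0.69, adjusted p = 0.0253) and G6pdx (0.49, adjusted p = 0.0497). Me2 went from 12.8 ± 1.24 to 27.3 ± 6.04 CPM, whereas Me1 was lower in DT without passing. The call of G6pdx was lost in 13 of the 17 alternatives, that of Tkt without saline library 1 or DT library 3, and 2 of the 9 rose without DT library 3. In the 4 libraries of the larger identifier series 0 of the 9 rose.

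Among 12 other glutathione genes Gpx1, which encodes a cytosolic glutathione peroxidase, was the 1 gene that passed with edgeR, going from 674.5 ± 72.0 to 980 ± 95.2 CPM (0.54, SE 0.14, adjusted p = 0.0152). The call was lost without saline library 2 or saline library 3 (adjusted p up to 0.134 over the alternatives). Per length it was at 607 RPKM in saline and 882 RPKM in DT, far above Gpx2 in both groups. The plasma glutathione peroxidase Gpx3, with the largest difference of the list, measured 2.28, 0.879 and 3.82 CPM with saline and 1.03, 0.201 and 0.399 CPM with DT and did not pass (-2.06, SE 0.70, adjusted p = 0.0507). With DESeq2, with scaling by library size only, without saline library 2 or without DT library 1, 1 gene of this list fell. Of 10 heme and iron genes 2 rose and 2 fell, against 17.2% and 11.9% of all genes tested. The transferrin receptor Tfrc rose from 9.003 ± 2.84 to 37.1 ± 14.8 CPM (2.04, SE 0.32, adjusted p = 0.00158), and biliverdin reductase Blvra, which acts on the product of heme oxygenase, rose by 0.62 (adjusted p = 0.00673). The other biliverdin reductase, Blvrb, fell (-0.54, adjusted p = 0.0233), as did the ferritin heavy chain Fth1 (-0.41, adjusted p = 0.0431). Both falls were lost when saline library 2, DT library 2 or DT library 3 was left out, and that of Fth1 also without saline library 1.

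Of the superoxide and peroxide enzymes Sod1, Sod2, Sod3 and Cat, 0 of 4 passed with edgeR or DESeq2. With limma-voom 1 fell, and Sod3, with means of 0.847 ± 0.229 CPM (saline) and 0.153 ± 0.16 CPM (DT), was the 1 gene at an unadjusted p under 0.05 with edgeR. Catalase (Cat) was at 567 ± 51.3 and 630 ± 53.4 CPM. Of 14 further detoxification genes linked to NRF2, 3 rose and 2 fell, with a median of -0.07. Among all genes tested 17.2% rose and 11.9% fell, so these counts are near the shares of all genes. The aldo-keto reductase Akr1b8 (0.77, adjusted p = 0.00301), UDP-glucose dehydrogenase Ugdh (0.57, adjusted p = 0.00719) and the efflux transporter Abcc1 (0.41, adjusted p = 0.0457, lost in 13 of the 17 alternatives) rose. The glutathione transferase Gstm1 fell from 224 ± 19.9 to 109.8 ± 24.5 CPM (-1.03, adjusted p = 0.00241), and the epoxide hydrolase Ephx1 from 1257 ± 77.3 to 781 ± 131.5 CPM (-0.69, adjusted p = 0.00788). Of the 17 genes of these 7 lists that rose and the 5 that fell, Txn1, Tfrc and Gstm1 were the 3 that also passed in the 4 libraries of the larger identifier series.

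**Figure D4:**
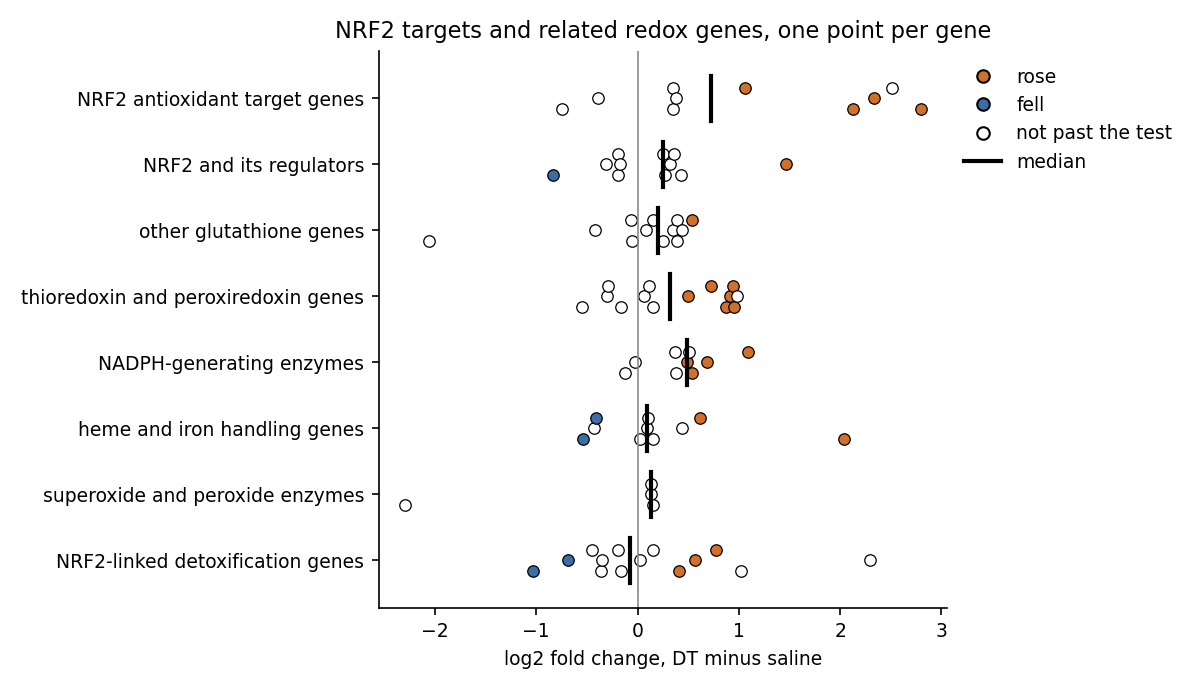
Log2 fold change (DT minus saline) of each tested gene in the NRF2 target list and 7 related redox lists, with 1 point per gene, coloured where the adjusted p was under 0.05, and a black bar at each list's median. The target list has a median of 0.72 and spreads from -0.75 to 2.80, and the other medians lie between -0.07 and 0.49.

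Gene counts summed to between 15300755 and 25558859 reads per library. Of the 15132 genes tested 2600 rose and 1795 fell, or 1564 and 1017 without DT library 3, and 1625 and 996 without DT library 2. Scaled by library size only, 2099 rose and 2316 fell. Saline library 1 stood apart from the other saline libraries on the second axis of variation (14.2% of the variance). Of 9 markers of the sorted cells 1 rose and 4 fell, where 17.2% of all genes tested rose and 11.9% fell. The sort antigens and Krt15 did not pass the test, with Krt15 at 34812 ± 6583 and 33362 ± 9506 CPM, Cd34 at 2804 ± 354.5 and 2348 ± 402.8 CPM and Itga6 at 122 ± 20.5 and 98.8 ± 10.5 CPM in saline and DT. Krt5, a basal keratin, was at 8965 ± 507.8 and 10628 ± 1065 CPM and did not pass. Its partner Krt14 rose from 2573 ± 331 to 8816 ± 513.5 CPM (1.78, adjusted p = 5.16e-05). The stem cell transcription factors Sox9 (-0.71, adjusted p = 0.0342), Lhx2 (-1.09, adjusted p = 0.00696) and Nfatc1 (-0.69, adjusted p = 0.0165) fell. Lgr5 fell from 24.0 ± 7.20 to 7.11 ± 0.143 CPM, and its transcript was read in every library of both groups. Summed markers of other cells were lower in DT for suprabasal epidermis (1415 to 1826 CPM in saline and 1152 to 1305 CPM in DT), melanocytes (99.6 to 140.2 and 64.0 to 83.5 CPM), fibroblasts (38.9 to 67.1 and 14.6 to 22.8 CPM, with Lum at 0 in every library) and sebocytes (271 to 291 and 211 to 253 CPM). Endothelial markers overlapped (3.19 to 23.6 and 8.02 to 11.9 CPM). By gene, 5 of 9 tested suprabasal, 3 of 4 melanocyte, 2 of 3 fibroblast and 1 of 7 sebocyte markers fell (11.9% of all genes). Mitf made up most of the melanocyte sum (103 ± 14.8 and 66.9 ± 9.70 CPM). Most of the sebocyte sum was Plin2 (109 and 94.1 CPM) and Mgst1 (90.5 and 70.3 CPM), and neither passed. Krtdap, a suprabasal marker, was at 476 ± 60.2 and 520 ± 146 CPM and did not pass. The part of the other-cell and sorted-cell markers in the changes of the NRF2 targets was not tested.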

How the data were processed

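Reads were aligned with GSNAP to GRCm38, per the submitters' processing notes. Versions, the gene annotation and the use of strand are not stated in any source used here. The deposited counts are reads that align uniquely to a gene model, and the deposited RPKM values carry a library size factor applied by the authors, per the file headers. Within a library RPKM and counts held the same information. Symbols came from RefSeq (GRCm38.p6), which names 31049 of the 36528 identifiers and 14371 of the 15132 genes tested.

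Counts were tested in R 4.3.3 with edgeR 4.0.16 (filterByExpr with a minimum count of 10 and total of 15, TMM scaling, robust quasi-likelihood test, no covariate, Benjamini-Hochberg adjusted p under 0.05 over all genes). The SE is the absolute log2 fold change divided by the square root of F. Levels are TMM-scaled CPM, mean ± SD over 3 libraries, and RPKM where genes are compared. The fit was also run on simulated counts in which few genes were changed, which does not test the scaling or the calls in these data. Libraries were numbered in the order of their records, and numbers pair nothing. No 2 libraries of a group were copies of each other (chi-square over its degrees of freedom 21.5 to 65.6).

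The 10 genes and the other lists were chosen with earlier results of these data known, so no list was tested as a set. Named genes were the 10, all NRF2 regulators, up to 4 genes past the test with the smallest p in each other list, and markers of the sort. Prdx2, Txnrd2, Abcc1, Prdx6, Sod1, Sod2, Sod3, Cat, Gpx3, Krt5, Krt14, Sox9, Lhx2, Nfatc1, Cd74, Cd3e, Cd3g, Mitf, Plin2, Mgst1, Krtdap and the macrophage markers were named after their values were seen. Prdx5 was also named after its values were seen. 1 listed marker had no matching identifier. The alternatives were other scalings, filters and tools (DESeq2 1.42.0, limma 3.58.1), log2(RPKM + 1) and log2(RPKM + 0.1), a block made from the submitters' identifiers (by number series, or by consecutive numbers), only the larger series (2 libraries per group), and each library left out.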

Additional observations from a re-analysis of the deposited data

How the results depend on the processing

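Gpx2, Hmox1 and Osgin1 kept their direction and call under all 17 alternatives, and Txnrd1 lost its call in 4 of them. Without each library in turn 3 to 4 of the 10 genes rose and 0 to 1 fell, and their median log2 fold change was 0.65 to 0.88. With scaling by library size only, 1 of the 10 fell (Nqo1). The median was 0.30 with limma on log2(RPKM + 1) and 0.53 on log2(RPKM + 0.1), where the added constant shrinks changes of low genes such as Slc7a11 (0.10 on log2(RPKM + 1)) and Osgin1 (1.20). The log2 ratio of Gclm to Gclc lay between -0.15 and 0.19 when libraries were left out and changed sign without saline library 2 (0.09) or DT library 3 (0.19). Over all genes 1564 to 2826 rose and 996 to 2045 fell without 1 library, and in the larger identifier series 1097 rose and 473 fell. Among all genes tested 17.2% rose and 11.9% fell. Summed over the 7 related lists, which hold 4 to 14 genes each, 17 genes rose and 5 fell. In the larger series 2 rose and 1 fell, and 8 fell when scaled by library size only. Without 1 library 12 to 16 rose and 2 to 11 fell. These recounts were added after the data were seen. With 1 library per group the smaller series gives no test. Its log2 ratios were 2.71 for Gpx2, 2.17 for Hmox1, 2.29 for Osgin1 and 1.94 for Txnrd1. The labels give no replicate numbers, so the pairing of libraries is unknown. With consecutive identifiers taken as pairs 2703 genes rose and 1889 fell, with the identifier series as a block 2450 and 1667, and 4 of the 10 rose with either. At 15300755 to 25558859 reads, depth limits Slc7a11, with 0 to 21 reads per library.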
